A study of Homo sapiens with 29 samples.

Results

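The genes described here are 8 human genes of the extracellular matrix and of stromal cells: TNMD, BGN, COL1A1, COL9A1, FN1, MMP2, PDGFRA and TGFBI. They were taken by symbol from an expression table of 13492 genes, and each had 1 row. They were picked because of how they differed between the treatment groups, so the differences between groups given for them are a description and carry no test. PolyA RNA was sequenced from 29 xenograft tumors of COLO320DM, an established human colorectal adenocarcinoma line with amplified MYC, which was grown in mice that were randomized to treatment once tumors had formed. All libraries are labelled 48 h. There were 10 libraries of vehicle, 8 of Helicon4neg at 30 mpk, 6 of Helicon4 at 30 mpk and 5 of Helicon4 at 100 mpk, with the dose unit as labelled. Helicon4 is a helicon peptide, a stabilized α-helix, that the series describes as aimed at β-catenin/TCF. Helicon4neg is known here only by that code name, and the labels give no structure for it. The mouse strain and the age and sex of the mice are not given in the sources used here. All tumors come from 1 cell line, and replicate numbers are the only sign that libraries of a group came from separate animals, so p-values measure the spread between these libraries.

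The extracellular matrix is the network of collagens, glycoproteins and proteoglycans that surrounds cells, and it is built and cut by secreted enzymes. In a carcinoma most of it is usually laid down by fibroblasts and other stromal cells, while tumor cells can add to it. In a xenograft the tumor cells are human and the stroma is mouse, so that a human gene measured by sequencing can be read from tumor cells or from mouse transcripts that align to it. The labels name GRCh38 and no mouse genome, and the values do not tell reads of the 2 species apart. In bulk tumors fewer cells of a type and less RNA per cell cannot be told apart either.

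By role, the 8 genes were 2 collagen chains, 2 adhesive glycoproteins, 1 proteoglycan, 1 tendon membrane glycoprotein, 1 matrix protease and 1 growth factor receptor. Positions are those of GENCODE 29 on GRCh38, an annotation not known to be the one the authors counted with. COL1A1, on chromosome 17 from 50183289 to 50201632, encodes the α1 chain of type I collagen, the main fibrillar collagen of tendon, bone and scar. COL9A1, on chromosome 6 from 70215061 to 70303083, encodes a chain of type IX collagen, which decorates the collagen fibrils of cartilage. FN1, on chromosome 2 from 215360440 to 215436172, encodes fibronectin, which cells bind through integrins. TGFBI, on chromosome 5 from 136028895 to 136063818, encodes a TGF-β-induced adhesive glycoprotein. BGN, on chromosome X from 153494939 to 153509554, encodes biglycan, a small leucine-rich proteoglycan. TNMD, also on chromosome X from 100584802 to 100599885, encodes tenomodulin, a membrane glycoprotein known as a tendon marker. MMP2, on chromosome 16 from 55389700 to 55506691, encodes gelatinase A, and PDGFRA, on chromosome 4 from 54229097 to 54298247, encodes the α receptor for platelet-derived growth factor. Exons of COL9A1 overlap AL160262.1 on the other strand, and exons of MMP2 and PDGFRA overlap AC007336.3 and AC058822.1 on their own strand, so part of those 3 values may be shared with these genes.

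TNMD and BGN had the highest and the lowest difference from vehicle at 100 mpk in the fit without title codes, and the 250 bases before their RefSeq start sites (GRCh38.p14, plus strand) are shown for that reason. Capitals mark a TATA box (TATAAA) in TNMD, whose first base lies at -31 from the start, and a TCF/LEF-type heptamer in BGN at -169. The upstream sequence of TNMD is chrX:100584686-100584935 and that of BGN is chrX:153494730-153494979.
TNMD: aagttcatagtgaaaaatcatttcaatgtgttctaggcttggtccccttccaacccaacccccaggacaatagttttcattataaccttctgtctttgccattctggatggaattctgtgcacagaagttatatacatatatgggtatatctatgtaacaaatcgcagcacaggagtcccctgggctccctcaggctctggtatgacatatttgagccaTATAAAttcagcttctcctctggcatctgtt
BGN: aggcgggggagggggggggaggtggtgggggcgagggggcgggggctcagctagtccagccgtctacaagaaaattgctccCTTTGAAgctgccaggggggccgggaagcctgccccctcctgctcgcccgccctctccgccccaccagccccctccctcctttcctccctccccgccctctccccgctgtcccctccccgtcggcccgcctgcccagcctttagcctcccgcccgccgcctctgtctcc
The TCF/LEF search took CTTTG followed by 2 bases that are each A or T, on both strands, and 12.0% of 35116 RefSeq promoter windows of this length hold at least 1 match. TATAAA is in 10.7% of the windows and the GC box GGGCGG in 42.6%. RefSeq windows were at hand for 6 of the 8 genes, 2 of which (COL9A1 and PDGFRA) have 2 start sites. The BGN heptamer was the TCF/LEF match in these 8 windows, the TNMD box was the TATAAA match, and GGGCGG was found in windows of BGN, FN1, PDGFRA and TGFBI. A match describes the letters of a window and is not evidence of binding.

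Depth was 26.8 to 61.6 M recovered reads per library (M, mega). The slope of a library's log2 values against log2 gene length, relative to the mean library, was -0.32 in Helicon4neg library 2 and -0.19 in vehicle library 6, against -0.14 to 0.12 in the others. Library titles carry 7 codes of unstated meaning, SH7078 to SH7084, and no code holds both vehicle and Helicon4 libraries, so that code and treatment cannot be told apart in those comparisons. Code SH7079 holds 7 vehicle libraries, SH7080 holds 2 vehicle and 5 Helicon4neg libraries, SH7081 holds 3 Helicon4neg and 1 Helicon4 library at 30 mpk, and SH7083 holds 1 Helicon4 library at 30 mpk and 4 at 100 mpk. Values are CPM (read counts relative to library size) on the authors' scaling, given as mean ± SD between libraries, and differences are of mean log2(CPM + 1) ± SE, a scale that understates changes of genes near 1 CPM.

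Per kilobase of the gene length in the table, MMP2 was the highest of the 8 genes in vehicle tumors, at 31.6 CPM per kb, which exceeded the level of 89.6% of all genes. BGN followed at 18.5 CPM per kb. TNMD at 2.38, TGFBI at 2.26, COL1A1 at 1.26 and FN1 at 1.24 CPM per kb came next, and the ranges of these 4 over libraries overlapped. COL9A1 had 0.281 CPM per kb. PDGFRA had 0.0376 CPM per kb, which exceeded the level of 0.104% of all genes. With Helicon4 at 100 mpk TNMD had the highest mean of the 8, at 18.5 CPM per kb, although its range of 8.67 to 27.1 took in that of MMP2, 10.7 to 19.5. PDGFRA stayed the lowest in every group.

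**Figure D1:**
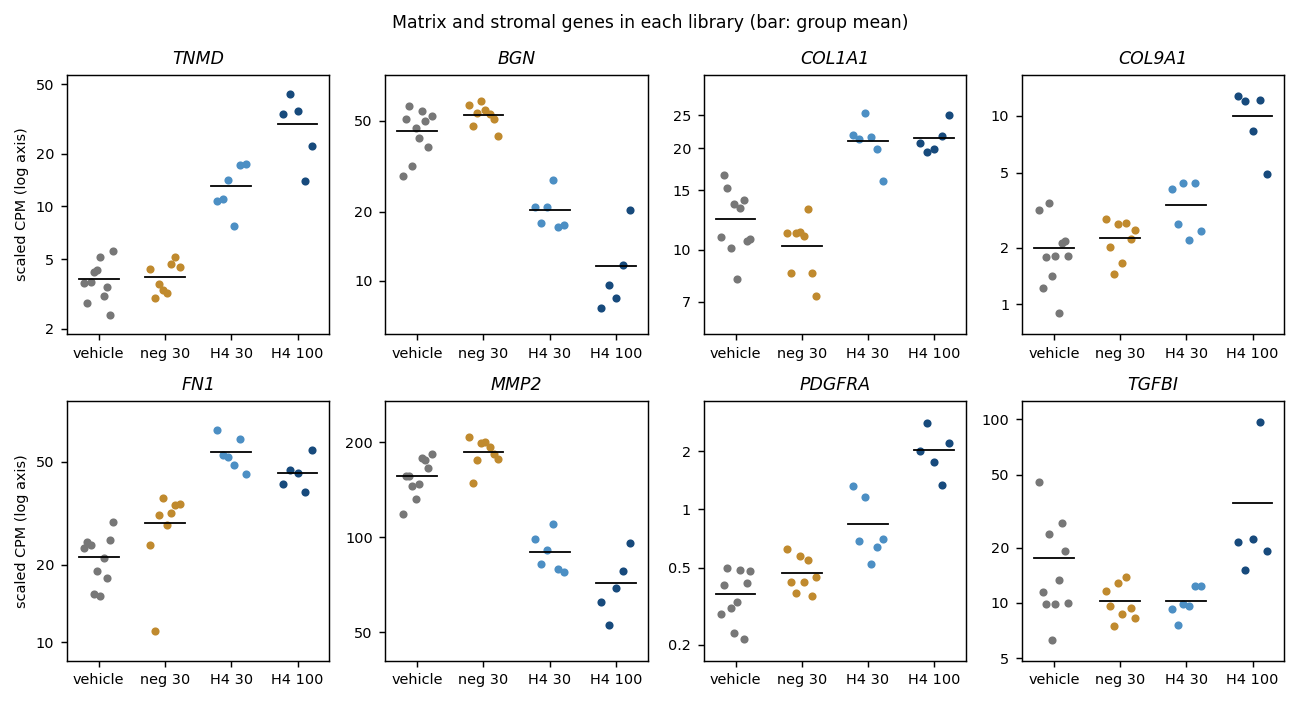
Scaled CPM on a log axis for each of the 8 genes in each library (points), with the group mean as a bar, in vehicle, Helicon4neg at 30 mpk (neg 30), Helicon4 at 30 mpk (H4 30) and Helicon4 at 100 mpk (H4 100). TNMD lies between 2.41 and 5.54 CPM in vehicle and between 14.0 and 43.6 CPM at 100 mpk, and BGN between 28.6 and 57.9 CPM in vehicle and between 7.56 and 20.4 CPM at 100 mpk.

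The collagen chain COL1A1 was higher with Helicon4 at either dose. Its CPM in vehicle was 8.16 at the lowest, 12.1 at the median and 16.7 at the highest, and with Helicon4neg 7.29, 11.1 and 13.2. With Helicon4 at 30 mpk it was 15.9, 21.5 and 25.4. The 5 libraries at 100 mpk had 20.7, 19.5, 19.9, 21.8 and 25.1 CPM. All 5 libraries at 100 mpk and 5 of 6 at 30 mpk lay above every vehicle library, and the 2 doses overlapped fully. Means were 12.3 ± 2.6 (SD, n = 10) in vehicle, 21.01 ± 3.09 (n = 6) at 30 mpk and 21.4 ± 2.2 (n = 5) at 100 mpk. The difference from vehicle was 0.74 ± 0.13 at 30 mpk and 0.77 ± 0.13 at 100 mpk, and the difference between doses was 0.03 ± 0.15.

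COL9A1, the cartilage collagen chain, was lower in level and differed most at the higher dose. In vehicle its CPM ran from 0.899 over a median of 1.80 to 3.47, with Helicon4neg from 1.45 over 2.35 to 2.85, and with Helicon4 at 30 mpk from 2.18 over 3.37 to 4.38. At 100 mpk the 5 libraries had 12.7, 12.0, 8.33, 12.2 and 4.89 CPM, all above every library of the other groups, with library 5 the nearest to them. The mean at 100 mpk, 10.0 ± 3.4 (SD, n = 5), was 5.04 times that in vehicle, a log2 difference of 1.86 ± 0.19. At 30 mpk 3 of 6 libraries lay above all vehicle libraries, and the difference from vehicle was 0.56 ± 0.18. The difference between the doses was 1.31 ± 0.21.

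FN1, the fibronectin gene, was higher with Helicon4 at both doses, and its mean was higher at 30 than at 100 mpk. Its lowest, median and highest CPM were 15.1, 22.2 and 29.3 in vehicle. They were 11.0, 31.5 and 36.2 with Helicon4neg, where the lowest value is that of library 2, the library with the steepest length slope, and FN1 is the longest of the 8 genes in the table at 17315 bases. With Helicon4 at 30 mpk they were 44.8, 52.9 and 66.3, and the libraries at 100 mpk had 40.9, 46.4, 45.3, 38.2 and 55.7 CPM. Every Helicon4 library lay above every library of vehicle and Helicon4neg. The difference from vehicle was 1.32 ± 0.17 at 30 mpk and 1.06 ± 0.19 at 100 mpk, and that between the doses, -0.26 ± 0.21, was of the order of its error. With Helicon4neg the difference from vehicle was 0.37 ± 0.16, and 0.55 ± 0.11 without Helicon4neg library 2.

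TGFBI, the other adhesive glycoprotein, varied widely within groups. Its CPM in vehicle ran from 6.29 over a median of 12.4 to 45.7, with Helicon4neg from 7.48 over 9.46 to 13.8, and with Helicon4 at 30 mpk from 7.58 over 9.76 to 12.4. The libraries at 100 mpk had 21.4, 15.2, 22.3, 97.0 and 19.2 CPM, and library 4 alone lay above all vehicle libraries. All 5 exceeded every library at 30 mpk. The difference from vehicle at 100 mpk was 0.80 ± 0.34, or 0.34 ± 0.30 without library 4 of that group and 0.97 ± 0.31 without vehicle library 1. In limma it missed the threshold over all genes, and passed without vehicle library 1 or 100 mpk library 2 (0.99). It passed in edgeR and DESeq2 on the recovered reads, at 0.99 and 1.00. The difference between the doses was 1.33 ± 0.37 and fell to 0.88 ± 0.32 without the same library 4.

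BGN, the proteoglycan, was lower with Helicon4, the more so at the higher dose. The lowest, median and highest CPM were 28.6, 48.2 and 57.9 in vehicle, 42.9, 53.7 and 61.3 with Helicon4neg, and 17.1, 19.4 and 27.6 with Helicon4 at 30 mpk. The libraries at 100 mpk had 7.56, 9.61, 8.41, 11.7 and 20.4 CPM. Every Helicon4 library lay below every library of vehicle and Helicon4neg, and library 5 at 100 mpk lay within the range of the 30 mpk group. The means were 45.4 ± 9.9 (SD, n = 10) in vehicle and 11.5 ± 5.2 (n = 5) at 100 mpk, 3.93 times lower. The log2 difference from vehicle was -1.10 ± 0.16 at 30 mpk and -1.94 ± 0.17 at 100 mpk, and that between the doses was -0.83 ± 0.19.

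TNMD, the tendon marker, differed most of the 8 from vehicle at 100 mpk in the fit without title codes. Its CPM had a lowest value of 2.41, a median of 3.67 and a highest value of 5.54 in vehicle, and of 2.99, 3.98 and 5.12 with Helicon4neg. With Helicon4 at 30 mpk these were 7.71, 12.6 and 17.6, and the libraries at 100 mpk had 33.8, 43.6, 35.02, 14.0 and 22.3 CPM. Every Helicon4 library lay above every library of the other 2 groups, and the lowest library at 100 mpk, library 4, lay within the range at 30 mpk. The mean at 100 mpk, 29.7 ± 11.6 (SD, n = 5), was 7.77 times the vehicle mean of 3.83 ± 0.99 (n = 10). The log2 difference from vehicle was 1.52 ± 0.19 at 30 mpk and 2.60 ± 0.20 at 100 mpk, and that between the doses was 1.08 ± 0.22. With the code in the library titles as a block, the differences from vehicle were 0.95 ± 0.52 and 1.65 ± 0.67, the latter smaller than those of COL9A1 and BGN.

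MMP2, the protease, was lower with Helicon4. The lowest, median and highest CPM were 119, 156 and 184 in vehicle, 148, 189 and 208 with Helicon4neg, and 77.8, 86.5 and 110.1 with Helicon4 at 30 mpk. At 100 mpk the libraries had 62.3, 52.8, 69.0, 78.1 and 96.0 CPM. Every Helicon4 library lay below every library of the other 2 groups, and the doses overlapped. The difference from vehicle was -0.79 ± 0.11 at 30 mpk and -1.13 ± 0.11 at 100 mpk, and that between the doses was -0.34 ± 0.13, or -0.45 ± 0.12 without library 5 at 100 mpk.

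PDGFRA, the receptor, was barely detected in vehicle. The lowest, median and highest CPM were 0.214, 0.369 and 0.496 in vehicle, 0.359, 0.434 and 0.623 with Helicon4neg, and 0.520, 0.696 and 1.32 with Helicon4 at 30 mpk. At 100 mpk the libraries had 2.00, 2.81, 1.76, 1.33 and 2.20 CPM, all above every library of the other 3 groups. At least 1 CPM was reached in 5 libraries at 100 mpk, 2 at 30 mpk and 0 of the vehicle and Helicon4neg libraries, so this gene entered the fit only through the group in which it was high. The mean at 100 mpk was 2.02 ± 0.55 (SD, n = 5), 5.53 times that in vehicle. The log2 difference from vehicle was 0.41 ± 0.09 at 30 mpk and 1.13 ± 0.10 at 100 mpk with the pseudocount of 1, and 0.98 and 2.18 with a pseudocount of 0.1.

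With Helicon4neg no gene of the 8 was separated from vehicle. The differences ran from -0.54 ± 0.29 for TGFBI to 0.37 ± 0.16 for FN1, and that of MMP2 was 0.26 ± 0.10. In this comparison 0 of the 8 genes had an adjusted p under 0.05 in limma, where 4.84% of all genes passed, and 0 in edgeR or DESeq2. An unadjusted p under 0.05 in limma was reached by 3 of the 8 and by 19.6% of all genes. Groups did not overlap for 0 of the 8, beside 0.508%. Without Helicon4neg library 2, FN1 and MMP2 passed, MMP2 with a difference of 0.30 ± 0.10.

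**Figure D2:**
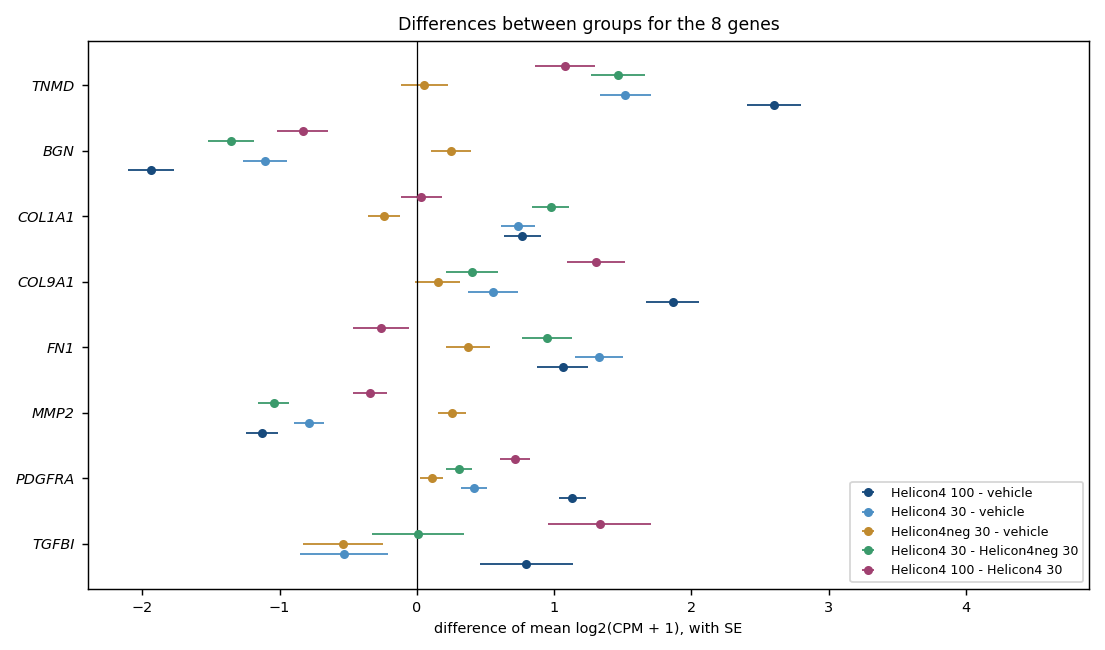
Differences of mean log2(CPM + 1) with standard errors for the 8 genes in 5 comparisons between groups, doses in mpk. TNMD lies farthest to the right at 2.60 for Helicon4 at 100 mpk against vehicle, BGN farthest to the left at -1.94, and the Helicon4neg values lie between -0.54 and 0.37.

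Counted over the 8 genes, 5 higher and 2 lower with Helicon4 at 100 mpk than in vehicle passed the threshold of 0.05 in the limma fit over all genes, where 30.2% of the 13373 genes tested passed (14.3% higher and 15.9% lower), and 7 did not overlap between the groups, where 8.8% of genes did not. On the recovered reads 8 of 8 passed both in edgeR, beside 30.3% of all genes, and in DESeq2, beside 33.2%, the added gene being TGFBI. In the other comparisons the counts over the 8 genes were equal in the 3 tools. At 30 mpk against vehicle the count was also 5 higher and 2 lower beside 11.1% of all genes (5.86% higher and 5.22% lower), and 5 did not overlap beside 4.34%. Against Helicon4neg at the same 30 mpk it was 4 higher and 2 lower beside 15.1% (7.78% and 7.31%), with 5 not overlapping beside 7.1%. Between the doses it was 4 higher and 1 lower at 100 mpk beside 3.6% (1.74% and 1.86%), with 3 not overlapping beside 3.92%. The genes were chosen on these differences, and the vehicle libraries serve in 3 of the comparisons, so nothing is read from these counts. The difference of COL9A1 at 30 mpk from vehicle missed the threshold without any 1 of vehicle libraries 2, 3, 5, 6, 7 and 10 or Helicon4 libraries 1, 3 and 5, at 0.49 to 0.55. That of PDGFRA against Helicon4neg missed it without Helicon4neg library 7 or Helicon4 library 1 or 3, at 0.24 to 0.29, and that of TGFBI between the doses without Helicon4 30 mpk library 1, 2, 3, 4 or 5 or 100 mpk library 3 or 4, at 0.88 to 1.40.

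The codes in the titles allow 3 comparisons within a code. Where 1 side is a single library, many genes separate by chance alone, and no share over all genes is given here. The 8 genes were chosen on differences between these groups, so nothing is read from the counts below. In code SH7081 the single library of Helicon4 at 30 mpk lay above the 3 Helicon4neg libraries for 5 genes, below them for 2 (BGN and MMP2) and among them for TGFBI. FN1, for example, had 66.3 CPM against 31.8 to 34.4, BGN had 21.01 against 42.9 to 53.4, and MMP2 had 98.8 against 177 to 194. In code SH7083 the 4 libraries at 100 mpk lay above the single library at 30 mpk for COL1A1, COL9A1, PDGFRA and TGFBI, below it for BGN (7.56 to 11.7 against 17.5 CPM), and on both sides of it for the other 3 genes. In code SH7080 vehicle and Helicon4neg overlapped for 8 of 8 genes. With the code as a block in the fit, the groups are linked only through these 3 codes. Differences of Helicon4 from vehicle then rest on the 2 vehicle libraries of SH7080 and the single 30 mpk library of SH7081. At 100 mpk they also rest on the single 30 mpk library of SH7083, so they do not separate code from treatment. Every difference from vehicle at 100 mpk kept its sign, from 0.58 for TGFBI to 2.41 for COL9A1 among those higher. BGN was at -1.74 and MMP2 at -1.07. TNMD had 1.65 and COL1A1 1.47 ± 0.44. PDGFRA, which entered the fit only through the group in which it was high, had 1.49 ± 0.32. Against Helicon4neg at 30 mpk, where the block leaves 1 Helicon4 library, the differences ran from -1.18 for BGN to 1.14 for COL1A1. Many calls of the 8 genes were lost under the block, among them all of those at 30 mpk against vehicle.

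Whether the values come from tumor cells or from mouse stroma could be looked at through marker genes that stromal cells are known for. Tumor epithelial markers differed widely in level. CDX2, an intestinal transcription factor, had 3135 CPM in vehicle and MYC had 5244 CPM, and both are known to be amplified in COLO320DM. The keratins KRT18 and KRT19 had 111 and 0.690 CPM. Of 24 fibroblast markers 12 had a row, and their levels differed widely. CCDC80 at 342 CPM and FBLN1 at 192 CPM were the highest in vehicle, COL3A1, the fibrillar collagen made with type I collagen by fibroblasts, had 11.9 CPM, and SPARC, among the most abundant fibroblast transcripts in tissue, had 1.11 CPM (0.229 per kb). COL1A2, DCN, LUM, POSTN and 8 other fibroblast markers are not analysed here. In every library each measured marker of the fibroblast, pericyte, endothelial and leukocyte lists had reads, and none was at 0. Markers with a row were 5 of 12 for pericytes and smooth muscle, 6 of 18 for endothelium and 6 of 20 for leukocytes. The others, such as MYH11, PECAM1, CDH5 and CD68, are not analysed here. Of the 13492 genes with a row, 13373 reached 1 CPM in 5 or more libraries. Reads were therefore likely for almost any gene with a row, and the presence of host cell types was not tested. Among endothelial markers ERG had 117 CPM and EGFL7 45.9 CPM in vehicle, and PTPRC, the pan-leukocyte marker, had 20.9 CPM.

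**Figure D3:**
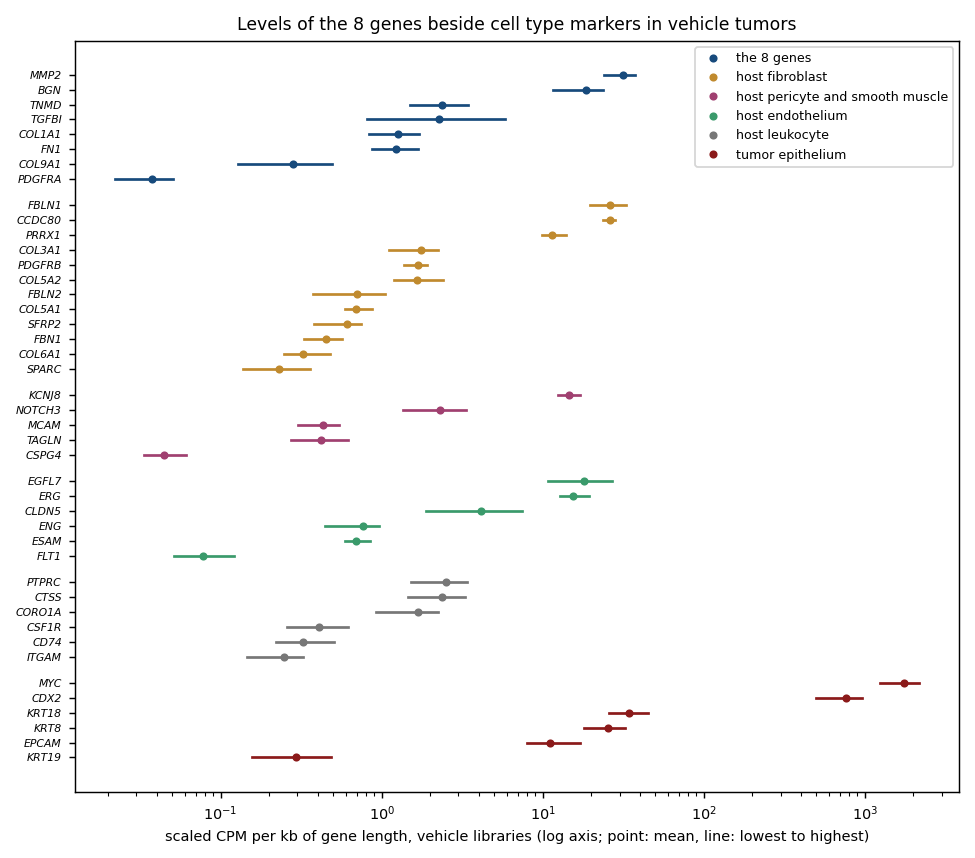
Scaled CPM per kilobase of gene length in the 10 vehicle libraries on a log axis, as the mean (point) and the range from lowest to highest library (line), for the 8 genes and for markers of host cell types and of tumor epithelium. MMP2 at 31.6 CPM per kb lies at the level of FBLN1 and CCDC80, while COL1A1 at 1.26 lies near COL3A1 at 1.75 and SPARC at 0.229 is below both.

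The summed level of the measured fibroblast markers overlapped between all groups, at 604 to 755 CPM in vehicle, 655 to 747 with Helicon4neg, 630 to 756 with Helicon4 at 30 mpk and 571 to 727 at 100 mpk. In vehicle CCDC80 and FBLN1 make up most of this sum, so it mainly follows these genes. The mean log2(CPM + 1) of the measured fibroblast markers was 3.79 ± 0.13 (SD, n = 10) in vehicle and 3.76 ± 0.12 (n = 5) at 100 mpk, a difference of -0.03 (adjusted p = 0.843, exact permutation test, two-sided, adjusted over 20 tests). Within the list SPARC rose by 0.57 ± 0.15 at 100 mpk (adjusted p = 0.00516, limma), to 2.17 CPM, while FBLN1, SFRP2 and PDGFRB fell and the other 8 of 12 did not pass. The mean over the leukocyte markers did not pass either (difference at 100 mpk -0.02, adjusted p = 0.843, exact permutation test), but single markers did, in both directions: CTSS, a lysosomal protease, fell by 0.77 ± 0.15 (adjusted p = 0.000157, limma) and ITGAM, an integrin chain of myeloid cells, rose by 0.33 ± 0.10 (adjusted p = 0.0121), while the other 4 of 6 did not pass. The mean over the endothelial markers was lower with Helicon4: in log2(CPM + 1) it was 3.46 ± 0.11 (n = 10) in vehicle, 3.20 ± 0.11 (n = 6) at 30 mpk and 2.87 ± 0.10 (n = 5) at 100 mpk (adjusted p = 0.00749 and 0.00666, exact permutation test). At 30 mpk the call was lost when linear values were averaged (adjusted p = 0.249, exact permutation test). CLDN5, a tight junction gene also made by epithelia, fell most in that list, by 1.16 ± 0.23 at 30 mpk and by 1.86 ± 0.25 at 100 mpk, from 14.2 CPM in vehicle to 2.99 CPM. The list was made with earlier results of these data known, and CLDN5 makes up most of the fall of the mean at 30 mpk. At 100 mpk CLDN5 again makes up more of that fall than any other marker, with EGFL7 next at -0.61 ± 0.23. The p-values of this mean are therefore a description. At 30 mpk FLT1 (-0.27 ± 0.09, adjusted p = 0.0497, limma) was the other of the 6 members that passed, a call lost without any 1 of vehicle libraries 2, 3, 5, 6, 7, 9 and 10 or Helicon4 libraries 2 to 6, at -0.29 to -0.22. ENG (0.10 ± 0.12) and ERG (0.04 ± 0.11) had values above 0. At 100 mpk ERG, EGFL7 and CLDN5 passed and the 6 differences were all below 0. The call of EGFL7 was lost without any 1 of vehicle libraries 2, 3, 4, 6 and 8 or 100 mpk libraries 2, 3 and 5, at -0.66 to -0.52. The mean over pericyte and smooth muscle markers at 100 mpk differed from vehicle by -0.24 (adjusted p = 0.0546, exact permutation test), or by -0.28 without vehicle library 6 (adjusted p = 0.005), and also by -0.27 without library 1 at 100 mpk (adjusted p = 0.044). Of the 4 markers in this mean KCNJ8 fell most, by 0.63 ± 0.12 (adjusted p = 0.000111, limma). The others did not pass, and TAGLN was at 0.03 ± 0.16. With the mean host marker level as a covariate, the difference from vehicle at 100 mpk was 2.25 for TNMD, 1.54 for COL9A1, 1.52 for FN1 and 1.22 for PDGFRA. It was 1.07 for COL1A1, 0.51 for TGFBI, -0.76 for MMP2 and -1.42 for BGN. That level includes markers that themselves differed with Helicon4, such as CLDN5, FBLN1 and CTSS, so this fit cannot set a host part aside. Of the 5 tumor epithelial markers tested, CDX2 fell by 0.59 ± 0.13 at 100 mpk (adjusted p = 0.000645, limma) and the others did not pass. The part of host cells in the differences was not tested.

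Within the 10 vehicle libraries, where no treatment enters, 32 relations between the 8 genes and the 4 host marker levels were computed, and 0 passed after adjustment. By Pearson's r PDGFRA, with 7 to 27 reads per vehicle library, was closest to the fibroblast level (Pearson's r = 0.83, Spearman's rho = 0.68, permutation p = 0.00641 and 0.0347, adjusted p = 0.128 and 0.185, r = 0.79 without the 2 farthest libraries and 0.79 within the 7 libraries of code SH7079). By Spearman's rho MMP2 was closest to it (rho = 0.81, r = 0.68, permutation p = 0.00716 and 0.0314, adjusted p = 0.173 and 0.207, r = 0.45 without the 2 farthest and 0.40 within the code). FN1 had r = 0.76 (rho = 0.70, permutation p = 0.0141 and 0.0295, adjusted p = 0.150 and 0.185, r = 0.90 without the 2 farthest and 0.88 within the code). TNMD had r = -0.76 with the pericyte and smooth muscle level (rho = -0.78, permutation p = 0.00798 and 0.0108, adjusted p = 0.128 and 0.173, r = -0.63 and -0.81 in the same order). FN1, the longest of the 8 genes, had 15.4, 15.1 and 17.7 CPM in vehicle libraries 4, 6 and 8, whose length slopes were -0.14, -0.19 and -0.13. The other vehicle libraries had 18.9 to 29.3 CPM of FN1 and slopes from -0.05 to 0.06. Whether the length slope enters the relation of FN1 to the fibroblast level was not tested.

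Genes that work with the 8 were set beside them. COL9A2, another chain of type IX collagen, rose with Helicon4 against vehicle, from 2.60 CPM in vehicle to 3.77 CPM at 30 mpk (0.41 ± 0.11, adjusted p = 0.00961, limma) and 3.94 CPM at 100 mpk (0.47 ± 0.11, adjusted p = 0.0024). Against Helicon4neg at 30 mpk it differed by 0.28 ± 0.11 and did not pass (adjusted p = 0.0994, limma). The chains of the fibronectin receptor, ITGA5 and ITGB1, did not pass in any comparison and at 100 mpk differed from vehicle by -0.07 ± 0.08 and 0.07 ± 0.14. MMP14, the membrane protease that activates the MMP2 proenzyme, and TIMP2, the inhibitor that takes part in that step, differed by 0.08 ± 0.09 and 0.04 ± 0.08 and did not pass either. Of the PDGF genes, PDGFC, a ligand of PDGFRA, differed by -0.01 ± 0.13 at 100 mpk and did not pass. PDGFRB, the β receptor of pericytes and fibroblasts, fell by 0.29 ± 0.11 at 100 mpk (adjusted p = 0.034, limma), a call lost without vehicle library 2 (-0.28) or 3 (-0.28) or 100 mpk library 2 (-0.23), 3 (-0.31) or 4 (-0.25). TGFB1, which induces TGFBI, differed by -0.09 ± 0.18. COL1A2, COL9A3, CNMD, DCN, PDGFA and POSTN are not analysed here.

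The wider matrix was read from 8 lists of genes, the 8 genes above left out, of which 161 of 271 symbols were tested. With Helicon4 at 100 mpk, 35 of these rose and 36 fell against vehicle, 44.1% of them beside 30.2% of all genes, and the median difference was -0.0077 beside 0.0051 over all genes. COL14A1, COL28A1, GPC5, SERPINE2 and ITGA10 had means under 1 CPM in vehicle, and LOXL4 had one under 1 CPM with Helicon4. Such genes may have entered the fit mainly through the groups in which they were high, so their p-values in this and every later comparison are a description. Collagen chains had 8 of 18 higher and 3 lower (median 0.18). COL14A1, a fibril-associated collagen, rose by 1.34 ± 0.12 from 0.691 to 3.32 CPM (adjusted p = 3.59e-10, limma), and COL24A1 by 0.89 ± 0.12 and COL28A1 by 0.68 ± 0.12. COL13A1, a transmembrane collagen, fell by 1.92 ± 0.11 from 38.5 to 9.39 CPM (adjusted p = 2.81e-14, limma), and COL4A2, a basement membrane chain, fell by 0.71 ± 0.12. Collagen processing genes had 1 of 23 higher and 14 lower (median -0.34). LOXL4, a lysyl oxidase relative that cross-links collagen, fell by 1.20 ± 0.14 (adjusted p = 7.65e-08, limma), PCOLCE2, an enhancer of procollagen cleavage, by 0.89 ± 0.12, and COLGALT1, a collagen galactosyltransferase, by 0.75 ± 0.11, while BMP1, the procollagen C-proteinase, rose by 0.40 ± 0.10.

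Matrix glycoproteins had 12 of 39 higher and 5 lower at 100 mpk (median -0.01). MFAP4, a microfibril-associated protein, rose by 1.81 ± 0.17 from 2.61 to 11.8 CPM (adjusted p = 1.15e-09, limma), LAMA4, a laminin chain of vessels, by 1.18 ± 0.13, and MATN2 by 0.68 ± 0.11. THBS4 fell by 0.69 ± 0.12, FBLN1 by 0.59 ± 0.10 and LAMB1 by 0.55 ± 0.11. Among proteoglycans and their enzymes 2 of 18 were higher and 5 lower (median -0.12). GPC5, a glypican, rose by 1.67 ± 0.12 from 0.530 to 3.93 CPM (adjusted p = 8.93e-12, limma), and CHPF, a chondroitin polymerizing factor, fell by 0.95 ± 0.16, the epithelial syndecan SDC1 by 0.65 ± 0.11 and FMOD, a small leucine-rich relative of BGN, by 0.54 ± 0.09. Proteases and inhibitors had 4 of 17 higher and 2 lower (median 0.13): MMP11 fell by 1.26 ± 0.12 from 84.9 to 35.01 CPM (adjusted p = 1.24e-09, limma), and SERPINE2 rose by 0.64 ± 0.11 and MMP15 by 0.59 ± 0.13.

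Matrix receptors had 4 of 21 higher and 4 lower at 100 mpk (median -0.0036). ITGA10, a collagen-binding integrin chain of cartilage, rose by 1.03 ± 0.12 (adjusted p = 1.41e-07, limma), while ITGA1, another collagen-binding chain, fell by 0.87 ± 0.16 and ITGA8 by 0.72 ± 0.13. The fall of ITGA8 was not particular to Helicon4, since with Helicon4neg it was lower than in vehicle by 0.77 ± 0.12. At the matched 30 mpk ITGA8 was higher with Helicon4 than with Helicon4neg, by 0.54 ± 0.13. PDGF and TGF-β signaling genes had 3 of 15 higher and 1 lower (median 0.12), and PDGFRL, a PDGF receptor-like gene, rose by 0.63 ± 0.08. The median over the 10 tendon and cartilage regulators was 0.0072. SOX9, the regulator of cartilage collagens that is also active in intestinal crypts, rose by 1.03 ± 0.12 from 4.68 to 10.7 CPM (adjusted p = 1.32e-07, limma). RUNX2, the bone regulator, fell by 1.87 ± 0.16 from 68.3 to 17.7 CPM (adjusted p = 2.04e-10, limma). With the title code as a block, 1 of the 161 genes passed at 100 mpk, COL13A1 at -1.29 ± 0.31 (adjusted p = 0.0376, limma).

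**Figure D4:**
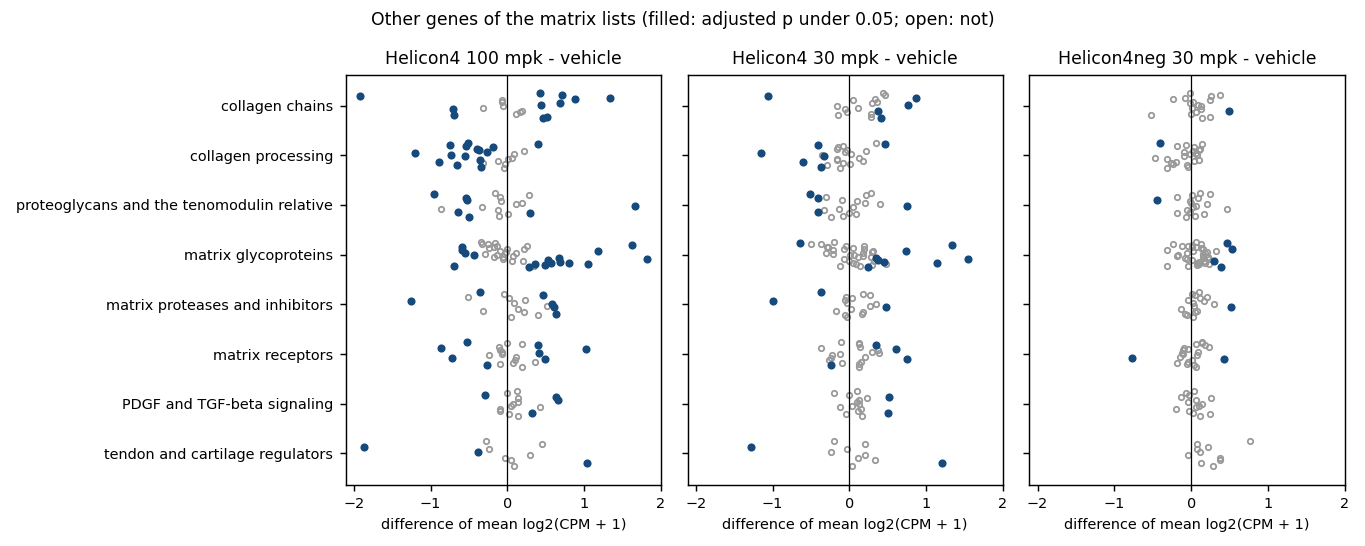
Differences of mean log2(CPM + 1) from vehicle for the genes of 8 matrix lists with 100 mpk or 30 mpk of Helicon4 or 30 mpk of Helicon4neg, filled where the adjusted p was under 0.05. At 100 mpk 35 genes rose and 36 fell, at 30 mpk 21 and 14, and with Helicon4neg 7 and 3, and the 14 lower genes of collagen processing lie to the left of 0.

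At 30 mpk against vehicle 21 of the 161 genes rose and 14 fell, 21.7% beside 11.1% of all genes (median 0.06 beside -0.0020). MFAP4 rose by 1.54 ± 0.16, SOX9 by 1.20 ± 0.12, SMOC1, a matricellular gene, by 1.15 ± 0.14 and COL2A1, the cartilage fibrillar collagen, by 0.77 ± 0.14 from 5.04 to 9.27 CPM (adjusted p = 0.000291, limma). RUNX2 fell by 1.27 ± 0.15, LOXL4 by 1.15 ± 0.13, COL13A1 by 1.06 ± 0.10 and MMP11 by 0.99 ± 0.11. CTGF, a matricellular gene also known as CCN2, fell by 0.65 ± 0.15 from 2.25 to 1.05 CPM. With the title code as a block 0 of these genes passed.

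Against Helicon4neg at the matched dose of 30 mpk, 21 genes were higher and 23 lower with Helicon4, 27.3% beside 15.1% of all genes (median 0.04 beside -0.0029). MFAP4 (1.31 ± 0.17), SOX9 (1.08 ± 0.12), SMOC1 (0.96 ± 0.14) and COL14A1 (0.94 ± 0.12) rose, and RUNX2 (-1.50 ± 0.16), COL13A1 (-1.32 ± 0.11), LOXL4 (-1.22 ± 0.14), MMP11 (-1.16 ± 0.12) and CTGF (-1.11 ± 0.15) fell. With the title code as a block, this comparison rests on code SH7081, with 1 Helicon4 library beside 3 Helicon4neg libraries. Most calls of the lists were lost. For 5 of the genes the differences were then -1.14 ± 0.20 (COL13A1), -1.53 ± 0.36 (RUNX2), -0.98 ± 0.21 (MMP11), 1.54 ± 0.37 (MFAP4) and 1.34 ± 0.25 (SOX9). These values are a description.

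Between the doses 4 genes rose and 7 fell at 100 mpk, 6.83% beside 3.6% of all genes (median -0.06 beside 0.0074). GPC5 rose by 0.92 ± 0.14 (adjusted p = 0.000123, limma), a p-value that is a description for this gene. COL13A1 fell by 0.86 ± 0.12, ADAMTS14, a procollagen N-proteinase, by 0.86 ± 0.15 and COL4A2 by 0.65 ± 0.13. The count was 7 without 30 mpk library 4 or 100 mpk library 3 and 4 without 100 mpk library 2. With Helicon4neg against vehicle 7 genes rose and 3 fell, 6.21% beside 4.84% (median 0.05 beside 0.0023), and the count was 24 without Helicon4neg library 2. FBLN7 rose by 0.53 ± 0.09 and COL5A1 by 0.49 ± 0.11, and ITGA8 fell by 0.77 ± 0.12 and GPC1 by 0.45 ± 0.08. With the title code as a block 0 genes passed in either of these comparisons.

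Across the 29 libraries, with group means taken out, the 8 genes varied together only in part. The highest Pearson's r among them was 0.77, between BGN and MMP2, followed by 0.57 between BGN and COL1A1, and the lowest was -0.64, between BGN and COL9A1. These libraries share depth, length slope and title codes, and the values are a description. Among all genes with a mean of at least 5 CPM, the pattern most like TNMD was that of KNG1 (r = 0.75), followed by MGC32805 (0.73) and TFAP2B (0.71). BGN was most like EFHD1 (0.80), CD5 (0.79) and DAB2IP (0.78), and MMP2 most like OSBP2 (0.80), ARHGAP23 (0.78) and BGN. COL1A1 was most like PTK7 (0.80), TBCD (0.77) and TLN2 (0.76), and COL9A1 most like HOXA9, AMY2B and ADAT2 (0.77 each). FN1 was most like VPS13B (0.93), CHD7 (0.92) and SMARCA2 (0.91), which became 0.80, 0.85 and 0.77 without the 2 libraries of steepest length slope. PDGFRA was most like PADI2 (0.75), DDX58 (0.69) and HERC6 (0.64), and TGFBI most like HOXD10 (0.87), ENO2 (0.87) and PPFIA4 (0.86). Apart from BGN, none of these 24 genes belongs to the lists of matrix genes or host markers used here.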

How the data were processed

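Per the submitters' processing notes, the tools were Trimmomatic 0.39, STAR 2.7.7a, featureCounts, Subread 2.4.2 and edgeR 4.0.2 with GRCh38; settings, annotation and strand are not given in the sources used here. The labels name both a NEBNext and a TruSeq kit, so the kit is unclear. What the authors deposited is a scaled signal, CPM after division by an effective library size. Since 100% of values are a whole number of reads within 0.05 reads, depths could be recovered. A count test on those reads is an alternative. The 13373 genes reaching 1 CPM in 5 or more libraries entered limma 3.58.1 (R 4.3.3, trend and robust) as log2(CPM + 1), 4 groups in 1 fit. P-values (two-sided) took the Benjamini-Hochberg adjustment across the whole table, with 0.05 as threshold. Host marker levels were compared by exact permutation tests. Alternatives were a pseudocount of 0.1, other filters, TMM factors, a plain variance model, 2 groups only, blocks, covariates, edgeR 4.0.16, DESeq2 1.42.0 and each library left out.

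The genes described and all lists were chosen with earlier results of these data known. Named list genes are up to 3 called genes per list, direction and comparison with the smallest adjusted p, and the partners fixed for each gene. Of those, genes whose call was lost with any 1 library left out are not named, a restriction added after values were seen, except PDGFRB, FLT1 and EGFL7. Of the rest some are left out for length, and 1 gene is not reported here. Markers named beyond the 2 highest per list (COL3A1, SPARC, KRT18, KRT19, SFRP2, CLDN5, CTSS, ITGAM, FLT1, ENG) were chosen after their values were seen. KCNJ8 and TAGLN were likewise named after their values were seen. Genes whose symbol is on several rows were not used by symbol. The fit was tested on simulated data. Errors of differences are SE.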

Additional observations from a re-analysis of the deposited data

Results flagged for a closer look

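In 32 groups of libraries (8 genes by 4 groups), 3 held a library far from the others by Dixon's criterion, which chance alone meets in about 1 of 20 groups. BGN in Helicon4 30 mpk library 4 had 27.61 CPM, and the next library of that group had 21.02 CPM. TGFBI in vehicle library 1 had 45.7 CPM, with the next at 27.18 CPM. TGFBI in Helicon4 100 mpk library 4 had 96.96 CPM, with the next at 22.26 CPM.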

How the results depend on the processing

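In the order of Helicon4 100 mpk against vehicle, Helicon4 30 mpk against vehicle, Helicon4neg against vehicle, Helicon4 30 mpk against Helicon4neg and 100 against 30 mpk, 4043, 1481, 647, 2018 and 482 genes passed, and 71, 35, 10, 44 and 11 of the matrix lists. With the title code as a block these were 141, 74, 2, 184 and 10 genes, and 1, 0, 0, 5 and 0 of the lists. In every comparison with Helicon4 the block rests on single libraries at 30 mpk, so its counts there are a description. At least 5 CPM as the filter left 45, 22, 3 and 6 genes of the lists for both doses and Helicon4neg against vehicle and for 100 against 30 mpk, since fewer genes were tested. A covariate of host markers gave 2973 genes and 58 of the lists at 30 mpk against vehicle, and 214 and 6 between the doses. A covariate of the length slope gave 2249 at 30 mpk against vehicle, 2383 with 21 of the lists for Helicon4neg, 3440 against Helicon4neg, and 2000 with 45 of the lists between the doses. Without both libraries of steepest slope there were 2025 and 23 for Helicon4neg and 1051 and 23 between the doses. DESeq2 gave 1105 and 750 genes for these, and a fit of only both groups gave 366 for Helicon4neg. Leaving out 1 library gave 2947 to 4378, 983 to 1621, 381 to 2592, 1500 to 2295 and 203 to 695 genes in the same order, and 61 to 73, 27 to 42, 7 to 24, 34 to 50 and 4 to 15 of the lists. At 30 mpk against vehicle 983 came without Helicon4 library 1. For Helicon4neg 2592 came without its library 2 and 381 without its library 4. Between the doses 280 and 253 came without 30 mpk libraries 2 and 4, and 203, 240 and 316 without 100 mpk libraries 2, 3 and 4. Besides the filter, the cause was not tested. Replicate numbers did not pair libraries: over 35 pairs the correlation of deviations lay between -0.70 and 0.52 and exceeded 0.1 in 15, and 0 of 27 libraries were most like one of their own number. The replicate block gave 4431, 1519, 466, 1605 and 366 genes and 67, 36, 10, 36 and 10 of the lists. For genes near 1 CPM, such as PDGFRA, depth limits the precision.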
